A study of Homo sapiens with 6 samples.

Results

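Transcripts of the microRNA pathway genes AGO1, AGO2, AGO3, AGO4, DICER1, DROSHA, DGCR8, XPO5, TNRC6A and TARBP2 were measured in WM266.4, an established human melanoma cell line. The members were taken from the gene table by symbol, and all 10 were found among its 24526 genes. Silencing of RIPK4, a receptor-interacting serine/threonine kinase, was compared with a control siRNA: 3 cultures were transfected with a negative control siRNA (neg.si, Silencer Select Negative Control No. 2) and 3 with an siRNA against RIPK4 (RIPK4.si, also a Silencer Select siRNA). All 6 cultures were taken 48 h after transfection. Both groups had received an siRNA, untransfected cells were not analysed here, and so a change that transfection itself made in both groups cannot be told apart from none. The authors describe 3 biological replicates per condition, which the labels only number. Their libraries were alike in size, with 31688095, 30539087 and 30056850 counted read pairs for neg.si and 28464057, 30751441 and 30772817 for RIPK4.si, in the order of the replicate numbers used throughout. RNA came from whole cultures, so fewer cells of a kind and less RNA per cell cannot be told apart.

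MicroRNAs are short RNAs that lower the output of messenger RNAs to which they pair. A microRNA is cut from its primary transcript in the nucleus by DROSHA with its partner DGCR8, carried to the cytoplasm by XPO5 (exportin 5), and cut again by DICER1, which works with double-stranded RNA binding partners such as TARBP2. The mature strand is then held by an Argonaute protein, and TNRC6 proteins join Argonaute to the enzymes that shorten the poly(A) tail of the target. An siRNA enters the pathway late, at Argonaute, and AGO2 is the Argonaute best known for cutting the paired transcript. The pathway is thus the machinery that carries out a knockdown as well as one that cells use for their own transcripts.

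The silenced gene was examined first. RIPK4 (chr21:41739369-41767089, GRCh38, minus strand) stood at 85.8, 76.5 and 54.7 CPM (counts per 1000000 of the TMM-scaled total) in neg.si replicates 1, 2 and 3 and at 19.9, 16.7 and 21.5 CPM in RIPK4.si replicates 1, 2 and 3. The silenced cultures were all lower, by a wide gap. The fitted log2 fold change was -1.90 (standard error 0.203). In edgeR, with quasi-likelihood tests and Benjamini-Hochberg adjustment over the 16297 genes tested, its adjusted p = 0.0102. A gene is called below when that adjusted p is under 0.05. The call depends on which library is left out. The adjusted p in edgeR was 0.106 without neg.si replicate 2 and 0.0940, 0.0622 and 0.0725 without RIPK4.si replicate 1, 2 or 3, but 0.0111 and 0.000476 without neg.si replicate 1 or 3. The log2 fold change lay between -2.06 and -1.74 in these fits. DESeq2, with all libraries, gave an adjusted p = 1.21e-13.

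With RIPK4 lowered in this way, 0 of the 10 microRNA pathway genes was called by edgeR, against 125 of 16297 genes tested, or 0.767%. DESeq2 also called 0 of the 10, where it called 2.91% of the genes with an adjusted p. At an unadjusted p under 0.05, edgeR held 1 of the 10, AGO2, beside 10.8% of all genes, and DESeq2 held AGO2 too. In edgeR no member was under it with upper-quartile normalization or with a replicate block. The same held without neg.si replicate 2 or 3 or RIPK4.si replicate 1, 2 or 3. The groups did not overlap for AGO2 alone, 1 of 10. Of all genes tested 17.6% had no overlap, and 9.40% had none with RIPK4.si lower, as for AGO2. All 10 passed the filter on low counts, with between 393 and 5324 counts in a library. Their median log2 fold change was -0.02, and that of all genes tested was also -0.02. Of the 10 fitted values 3 were above 0 and 7 below, from -0.49 (AGO4) to 0.27 (TARBP2).

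**Figure D1:**
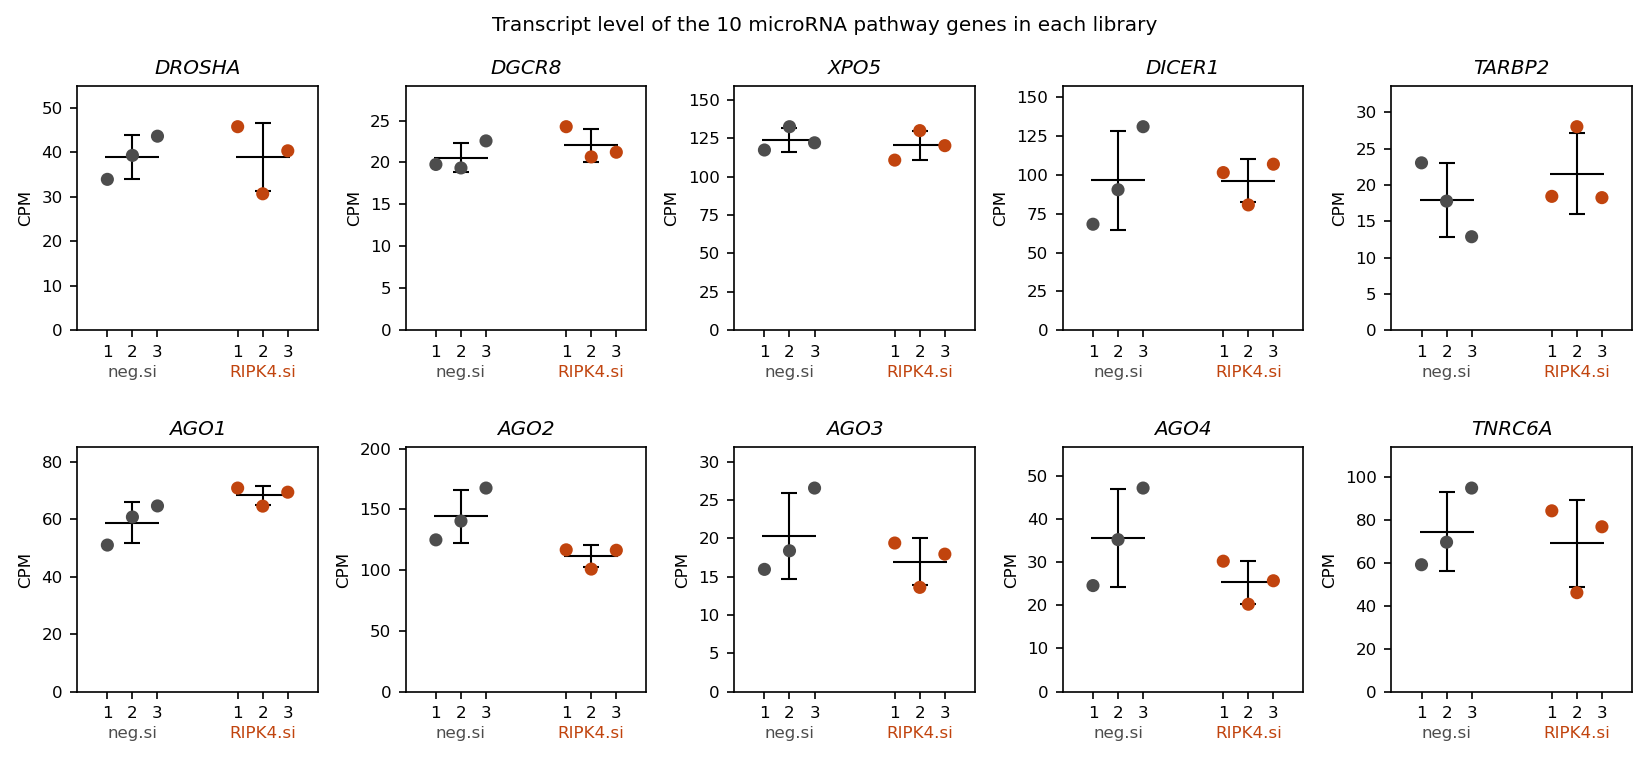
CPM of each of the 10 genes in each library (points, replicates 1 to 3 of neg.si in grey and of RIPK4.si in orange), with the mean and SD of each group (bar and whiskers, n = 3). The groups overlap for every gene but AGO2, whose RIPK4.si libraries lie between 101 and 117 CPM and whose neg.si libraries lie between 125 and 168 CPM.

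In the nuclear step, neither DROSHA nor DGCR8 was called. DROSHA, the nuclease of the complex (chr5:31400497-31532196, minus strand), was at 33.9, 39.3 and 43.6 CPM in neg.si replicates 1 to 3 and at 45.7, 30.6 and 40.3 CPM in RIPK4.si replicates 1 to 3. The RIPK4.si libraries held both the highest and the lowest value. The means were 38.9 ± 4.86 and 38.9 ± 7.63 CPM (SD, n = 3), and the log2 fold change was -0.000975 with a 95% confidence interval of -0.42 to 0.42. DGCR8, which holds the primary transcript (chr22:20080232-20111877, plus strand), was at 19.8, 19.3 and 22.6 CPM in neg.si and 24.3, 20.7 and 21.2 CPM in RIPK4.si. RIPK4.si replicate 1 was the highest library and the rest of the values were interleaved. Its log2 fold change was 0.10, with an interval of -0.25 to 0.46. Leaving out RIPK4.si replicate 1 or neg.si replicate 3 brought it to 0.0374 or 0.18. The exons of DGCR8 carry the hairpins of MIR3618 and MIR1306, which DROSHA and DGCR8 can themselves cut, and 7.18% of their bases overlap a long non-coding RNA on the opposite strand. Reads were counted without regard to strand, so those of overlapping genes cannot be told apart.

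XPO5, the carrier of the precursor hairpin (chr6:43522334-43576038, minus strand), had the narrowest interval of the 10 genes. It stood at 117, 132 and 122 CPM in neg.si and at 111, 130 and 120 CPM in RIPK4.si. The libraries of the groups were interleaved, and the SD was 7.77 and 9.61 CPM. The log2 fold change was -0.04, and the 95% confidence interval of the fold was 0.779 to 1.21. In its exons 4.10% of the bases are shared with POLR1C on the opposite strand.

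DICER1, which makes the mature duplex (chr14:95086228-95158010, minus strand), had close means and a wide spread. Per kb of exon it was at 3.08, 4.09 and 5.92 CPM in neg.si and at 4.59, 3.65 and 4.83 CPM in RIPK4.si. All RIPK4.si libraries lay inside the range of the neg.si libraries. The means were 4.36 ± 1.44 and 4.35 ± 0.626 CPM per kb (SD, n = 3). The log2 fold change was -0.00334. Its interval of -0.53 to 0.53 holds folds from 0.691 to 1.44, and this fit does not tell a change within it from none. Without neg.si replicate 3 the value was 0.28, with an adjusted p = 0.519 in edgeR. TARBP2, the double-stranded RNA binding partner of DICER1 (chr12:53500921-53506431, plus strand), was at 23.1, 17.8 and 12.9 CPM in neg.si and at 18.4, 28 and 18.3 CPM in RIPK4.si. The lowest library was neg.si replicate 3 and the highest RIPK4.si replicate 2. Its log2 fold change of 0.27 had an interval of -0.30 to 0.84. Leaving out RIPK4.si replicate 2 or neg.si replicate 3 brought it to 0.0434 or 0.0841, and leaving out neg.si replicate 1 to 0.51. In TARBP2 13.2% of the exon bases overlap a long non-coding RNA on the opposite strand.

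The annotated 3′ UTR of DICER1 is known for its pairing with miR-103 and miR-107. Their mature sequences, from RefSeq (GRCh38.p14), share the seed, bases 2 to 8, here in capitals:
miR-103a-3p: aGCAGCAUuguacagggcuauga
miR-107: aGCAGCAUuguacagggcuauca
let-7a-5p: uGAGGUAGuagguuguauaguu
let-7 is added because it is another microRNA known to pair with DICER1. The sequence that pairs with the miR-103 and miR-107 seed, ATGCTGC, occurs 5 times in the longest annotated 3′ UTR of DICER1, which has 4270 bases in GENCODE release 44. These sites are given with the match in capitals, 5′ to 3′ on the minus strand, because they show how the copies differ around one seed match:
DICER1 at chr14:95089448-95089474: cacctaaaatATGCTGCagattttata
DICER1 at chr14:95088847-95088873: gcttcgtggaATGCTGCatttatatgt
DICER1 at chr14:95087643-95087669: agtcctaactATGCTGCgttttataat
DICER1 at chr14:95086372-95086398: ttaccatcacATGCTGCagctgttttt
DICER1 at chr14:95086320-95086346: tacagtaatcATGCTGCagaaatttgc
ATGCTGC is held by 15.1% of the 12963 coding genes that were tested and have a 3′ UTR to search. Among the 10 members it was found in AGO1 (3 copies), AGO2 (5), AGO3 (1), AGO4 (2) and DICER1. The let-7 match, CTACCTC, was found in AGO1, AGO2, AGO3 and TARBP2, beside 12% of all genes, and not in this 3′ UTR of DICER1. Longer 3′ UTRs hold any such sequence more often: of the 1655 genes with at least 4285 bases, the shortest among the Argonautes, 39.2% hold ATGCTGC and 33% hold CTACCTC. A match is only a description, since no microRNA was measured.

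Of the Argonautes, AGO2 was lower in every RIPK4.si library than in any neg.si library, and the others overlapped. AGO2, the Argonaute that can cut its target (chr8:140520156-140635633, minus strand), was at 125, 140 and 168 CPM in neg.si replicates 1, 2 and 3. In RIPK4.si replicates 1, 2 and 3 it was at 117, 101 and 116 CPM. The groups did not overlap, but the gap between the lowest neg.si and the highest RIPK4.si library was small beside the spread within neg.si. The mean in RIPK4.si was 77.1% of that in neg.si, and the log2 fold change was -0.37 (95% confidence interval -0.73 to -0.02). edgeR gave a p of 0.0427 unadjusted and 0.433 adjusted. The adjusted p over the alternative settings lay between 0.187 and 0.863, so AGO2 was not called in any of them.

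AGO4, AGO1 and AGO3 lie in that order on the plus strand of chromosome 1, from 35808016 to 36072500, with 11917 bases between AGO4 and AGO1 and 185 bases between AGO1 and AGO3. AGO1 was at 51.1, 60.8 and 64.7 CPM in neg.si and at 70.9, 64.6 and 69.5 CPM in RIPK4.si. One RIPK4.si library, replicate 2, fell just under the highest neg.si library, and the remaining RIPK4.si libraries were above all of neg.si. Its log2 fold change was 0.22 (interval -0.12 to 0.55, adjusted p = 0.726 in edgeR), and 0.14 or 0.29 with neg.si replicate 1 or 3 left out. AGO4 was at 24.6, 35.2 and 47.2 CPM in neg.si and at 30.2, 20.2 and 25.7 CPM in RIPK4.si. The neg.si libraries alone spanned nearly the whole range. The log2 fold change was -0.49 (interval -1.05 to 0.07, adjusted p = 0.546 in edgeR), the lowest of the 10 genes, but it ran from -0.68 to -0.23 when neg.si replicate 1 or 3 was left out. AGO3 was at 16, 18.4 and 26.6 CPM in neg.si and at 19.4, 13.6 and 17.9 CPM in RIPK4.si, with a log2 fold change of -0.26 (interval -0.77 to 0.26). Leaving out neg.si replicate 3 brought it to -0.0126, and leaving out neg.si replicate 1 to -0.39. Thus the neighbours on chromosome 1 had fitted values on both sides of 0, and none of these 3 genes was called.

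TNRC6A, a scaffold that binds Argonaute (chr16:24610209-24827632, plus strand), was at 59.1, 69.6 and 94.8 CPM in neg.si and at 84.2, 46.1 and 76.8 CPM in RIPK4.si. Its lowest library was RIPK4.si replicate 2 and its highest neg.si replicate 3. The log2 fold change was -0.11, with an interval of -0.68 to 0.46, and it turned to 0.10 or 0.12 when neg.si replicate 3 or RIPK4.si replicate 2 was left out.

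**Figure D2:**
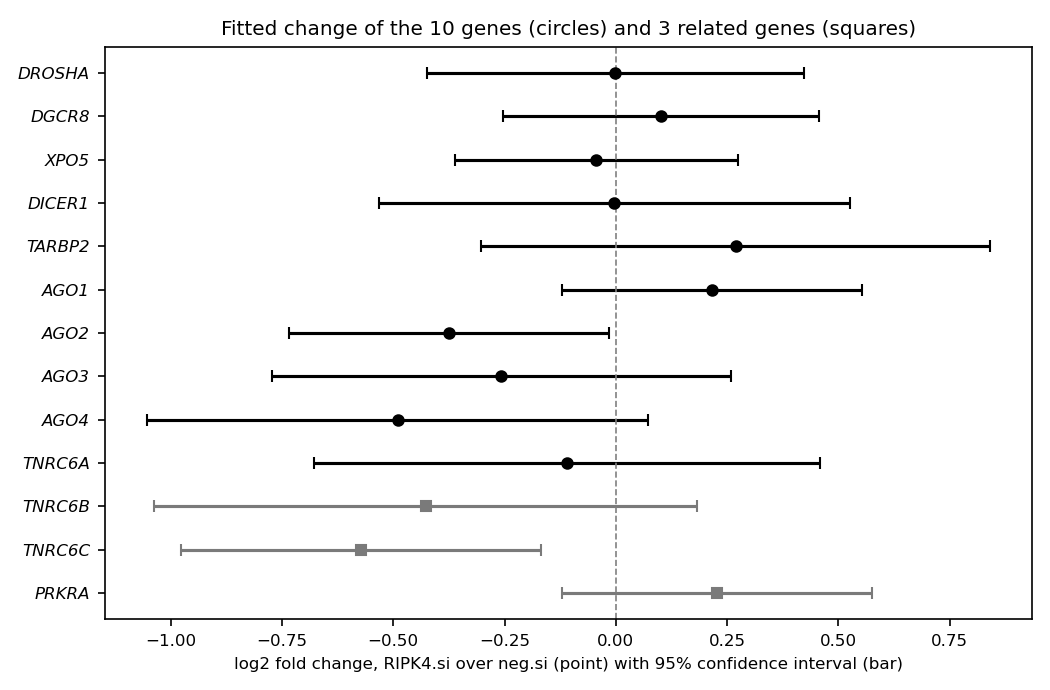
Fitted log2 fold change of RIPK4.si over neg.si (point) with its 95% confidence interval (bar) for the 10 genes, ordered by their step in the pathway, and for TNRC6B, TNRC6C and PRKRA (grey squares). Of the 10 intervals all but that of AGO2 (-0.73 to -0.02) hold 0, and that of TNRC6C lies below 0 as well.

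A ratio of one gene to another within a library does not depend on library size. Of the 6 pairs of Argonautes, the 3 with AGO1 had no overlap between the groups and the 3 without it overlapped. The ratio of AGO1 to AGO2, in CPM, was 0.409, 0.433 and 0.386 in neg.si replicates 1, 2 and 3. In RIPK4.si replicates 1, 2 and 3 it was 0.608, 0.641 and 0.597. The values were tight within each group and far apart between them. The log2 ratio differed by 0.59 between the groups, with a pooled SD of 0.0698, the lowest SD of the 45 pairs of members. The two-sided exact permutation test gave p = 0.1, and with 3 libraries in each group it cannot go lower. This pair was singled out after its values were seen, and the p is no support for it. AGO1 also stood higher relative to AGO3, at 3.20, 3.31 and 2.43 in neg.si and at 3.66, 4.75 and 3.87 in RIPK4.si. Relative to AGO4 it stood at 2.08, 1.73 and 1.37 in neg.si and at 2.35, 3.19 and 2.70 in RIPK4.si. In all 3 ratios the RIPK4.si libraries lay above every neg.si library. Of the 45 pairs of members, 12 did not overlap between the groups, or 26.7%, beside 18.3% of all pairs of 16277 genes tested. Pairs that share a gene are not independent: 5 of the 12 held AGO2, among them the ratios of AGO2 to DICER1, DROSHA, DGCR8 and XPO5, all lower in RIPK4.si.

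As shares of the summed Argonaute level per kb of exon, AGO2 held 48 ± 2.24% in neg.si and 43.6 ± 1.15% in RIPK4.si (SD, n = 3). AGO1 held 22.2 ± 1.72% and 30.3 ± 1.60%. Both shares were without overlap between the groups, and those of AGO3 and AGO4 overlapped. The sum of the 4 genes overlapped too, at 15.6, 18.8 and 22.8 CPM per kb in neg.si and 17.4, 14.3 and 16.6 CPM per kb in RIPK4.si. AGO2 was the most abundant Argonaute transcript and AGO3 the least in all 6 libraries. A share falls when another rises, so the shares of AGO1 and AGO2 are not separate results.

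**Figure D3:**
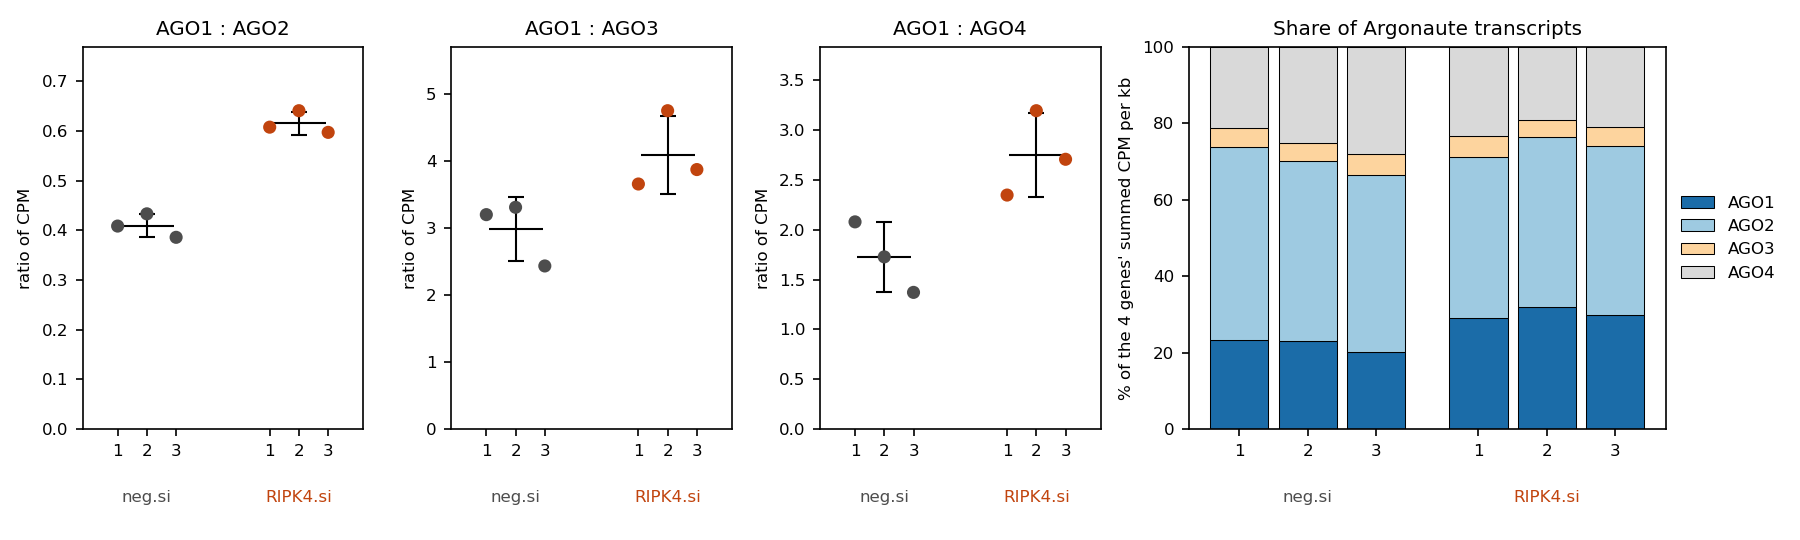
Ratio of AGO1 to AGO2, AGO3 and AGO4 in CPM in each library (points) with mean and SD (n = 3), and, at the right, the share of each Argonaute in their summed CPM per kb (stacked bars, 1 per library). The AGO1 to AGO2 ratio lies between 0.386 and 0.433 in neg.si and between 0.597 and 0.641 in RIPK4.si.

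The Argonautes also have long 3′ UTRs, of 10925 bases in AGO1, 11888 in AGO2, 16755 in AGO3 and 4285 in AGO4, beside a median of 1513 over all tested protein-coding genes. A 7-base sequence that had gone with lower levels in RIPK4.si in an earlier look at these data, ACAGCTT, was found in the 3′ UTR of all 4 Argonautes and of none of the other 6 members. It occurs in 16% of the 12963 genes and in 43.2% of those with at least 4285 bases. Over the 12963 genes the median log2 fold change was -0.10 with it and -0.000631 without it, with no account taken of 3′ UTR length. Its carriers among the members were fitted on both sides of 0, at 0.22 (AGO1), -0.37 (AGO2), -0.26 (AGO3) and -0.49 (AGO4). The sequence was picked from these same data, so these signs are no test of it, and no cause was tested.

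Sites of this sequence in the genes on chromosome 1 are given here, 5′ to 3′ on the plus strand of GRCh38 and with the 7 bases in capitals, so that the bases around each copy can be compared:
AGO4 at chr1:35856047-35856073: ctcgaacaatACAGCTTgtaagacctc
AGO1 at chr1:35919933-35919959: ctcatgcttgACAGCTTggtaaggtca
AGO1 at chr1:35929183-35929209: agagcctcatACAGCTTtgcctttggc
AGO3 at chr1:36065739-36065765: tgacatcagtACAGCTTgaccgcagtg
AGO3 at chr1:36068746-36068772: actttattatACAGCTTatgtctcaca
Another sequence from the same look, AGCAACC, which had gone with higher levels, was in the 3′ UTR of AGO2, AGO3 and TNRC6A, beside 8.24% of all genes and 22.8% of those with at least 4285 bases. The median log2 fold change was 0.0512 with it and -0.0210 without it. These 3 genes were all fitted below 0, at -0.37, -0.26 and -0.11, which is likewise no test of the sequence.

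The order of the 10 genes by level was set per kb of exon, as a mean over the 6 libraries. XPO5 was highest, at 14.4 CPM per kb, and all its libraries lay above all those of the next gene, AGO2, at 8.07 CPM per kb. TNRC6A (5.53), DROSHA (5.0), TARBP2 (4.83), AGO1 (4.53), DICER1 (4.36), AGO4 (4.11) and DGCR8 (2.91 CPM per kb) followed. From AGO2 down to DGCR8 each gene's library values overlapped those of the next when all libraries are pooled. Within a library AGO2 was nevertheless above TNRC6A in all 6, while the order of each later pair down to DGCR8 was turned round in at least 1 library. AGO3 was lowest at 0.881 CPM per kb, under every library of DGCR8. Annotated exons that a cell does not use lower such a value, and with the longest transcript as the length TARBP2 came after XPO5, ahead of AGO2.

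Much of the spread within neg.si went with base composition. The log2 ratio of neg.si replicate 3 to replicate 1 was 0.94 for DICER1 and 0.74 for AGO3, whose longest transcripts have a GC content of 39.5% and 38.9%. It was -0.84 for TARBP2, at 61.0% GC. Low-GC members were thus higher in replicate 3 and the member richest in GC was lower there. Across the 10 members Spearman's rho of this ratio with GC content was -0.89, and across 16219 genes it was -0.63 (descriptions across genes, which share the libraries and are not independent). In RIPK4.si this relation was weaker across all genes: for replicate 2 over replicate 1, rho was 0.70 across the members and 0.15 across all genes, and for replicate 3 over replicate 1 it was 0.19 and -0.01. In the ratio of neg.si replicate 3 to replicate 1, 9 of the 10 members lay above the median of all genes at their own GC content, AGO4 by the most (0.94 against 0.21). AGO1 and AGO2, at 46.4% and 46.6% GC, are nearly alike in this respect. With the trend of each library on GC content removed, the median SD of log2 CPM over the members went from 0.28 to 0.13 in neg.si and from 0.24 to 0.14 in RIPK4.si, although some members went the other way, such as DGCR8 in neg.si (0.12 to 0.36) and XPO5 in RIPK4.si (0.12 to 0.25). The unadjusted p was then 0.0196 for AGO2, 0.0434 for AGO4 and 0.0448 for AGO1 in edgeR, where 2588 of 16239 genes were under 0.05 in the same fit, and 0 of the 10 was called, with the lowest adjusted p = 0.187 (AGO2).

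**Figure D4:**
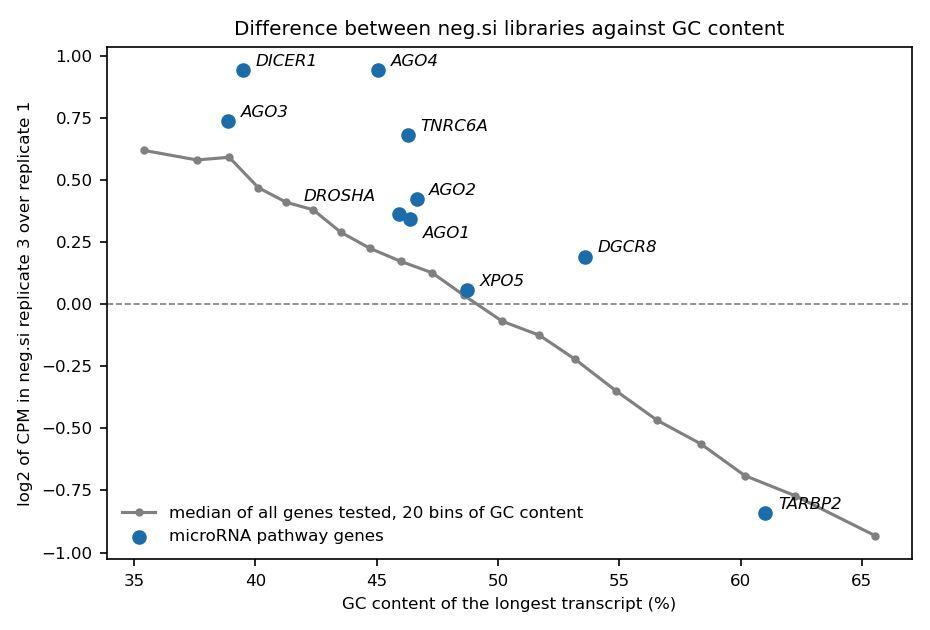
Log2 ratio of CPM in neg.si replicate 3 over replicate 1 against the GC content of the longest transcript for the 10 genes (blue), with the median of all genes tested in 20 bins of GC content (grey line). The ratio goes from 0.94 in DICER1 at 39.5% GC to -0.84 in TARBP2 at 61.0% GC.

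Paralogs and partners of the members were examined next. Of the 5 tested, 0 was called by edgeR or DESeq2 and 1 had an unadjusted p under 0.05 in edgeR, beside 10.8% of all genes. That gene was TNRC6C, a paralog of TNRC6A, at 18.1, 19.5 and 21.1 CPM in neg.si and at 13.7, 10.8 and 15 CPM in RIPK4.si. Every RIPK4.si library was lower than every neg.si library. A log2 fold change of -0.57 was fitted, with a standard error of 0.180 and an adjusted p = 0.236 in edgeR and 0.134 in DESeq2, and 12.3% of its exon bases overlap TMC6 on the opposite strand. TNRC6B, the remaining paralog, was at 47.8, 59.6 and 75.2 CPM and at 58.5, 28.1 and 49.1 CPM, with overlap and a log2 fold change of -0.43 (adjusted p = 0.679 in edgeR), which ran from -0.65 to -0.17 when RIPK4.si replicate 1 or 2 was left out. PRKRA, a partner of DICER1 like TARBP2, was at 16.7, 17.1 and 15.1 CPM in neg.si and at 19.1, 20.4 and 17.8 CPM in RIPK4.si. Its groups did not overlap, though the log2 fold change was only 0.23 (adjusted p = 0.715 in edgeR). Of its exon bases 8.85% overlap CHROMR on the opposite strand. The PIWI Argonautes, known from the germ line, were near the floor. The group means were 0.463 and 0.529 CPM for PIWIL2 and 1.16 and 0.781 CPM for PIWIL4, whose groups did not overlap. In PIWIL4 13.4% of the exon bases are shared with FUT4 on the same strand and 10.9% with PIWIL4-AS1 on the opposite strand. PIWIL1 and PIWIL3 were looked for by symbol and were not found among the counted genes.

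Beyond these, 7 lists of pathway genes, the paralogs among them, held 108 tested genes. edgeR called 0 of them, beside 0.767% of all genes, and 14, or 13%, had an unadjusted p under 0.05, beside 10.8% of all genes. DESeq2 called 2, TLR3 and OAS2, beside 2.91% of the genes with an adjusted p. Among genes of nuclear processing and export, 0 of 13 was called, the median log2 fold change was 0.02, and HNRNPA1, an RNA-binding protein that aids the processing of some primary transcripts, had the smallest p. It was at 467, 392 and 428 CPM in neg.si and at 624, 552 and 517 CPM in RIPK4.si, all higher than in neg.si (log2 fold change 0.40, adjusted p = 0.361 in edgeR). RCC1, which serves the RAN cycle that XPO5 depends on, also had no overlap (0.30), and the smallest p among lower genes were those of DDX5 (-0.23) and NCBP1 (-0.13), at -0.11 and -0.0201 with neg.si replicate 3 left out and -0.28 and -0.25 with neg.si replicate 1 left out. Among 13 genes of Argonaute loading and chaperones 0 was called and 0 had an unadjusted p under 0.05. Their extremes by p were HSPA8 (0.18) and FKBP4 (0.16), chaperone genes, and TSN (-0.50) and IPO8 (-0.33), with overlap in each. These values moved with single libraries: leaving out RIPK4.si replicate 2 brought HSPA8 to 0.0370 and FKBP4 to 0.0432, and leaving out neg.si replicate 3 brought TSN to -0.27 and IPO8 to -0.17.

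Genes of deadenylation, decapping and repression act on the target after TNRC6 is bound, and 0 of 31 was called by edgeR or DESeq2. In edgeR 3 had an unadjusted p under 0.05, beside 10.8% of all genes. CNOT6, a catalytic deadenylase subunit, was at 39.6, 46.1 and 62.1 CPM in neg.si and at 33, 27.8 and 31.4 CPM in RIPK4.si. The RIPK4.si libraries were close together and all lower. The log2 fold change was -0.68 (standard error 0.192), with an adjusted p = 0.181 in edgeR, 0.0553 in DESeq2 and, over all alternatives, between 0.0201 (edgeR with the GC trend removed) and 0.594. Its paralog CNOT6L had a log2 fold change of -0.44 (adjusted p = 0.446 in edgeR), with overlap. LIMD1, a scaffold that links Argonaute to decapping, was at 65.8, 64.1 and 53.9 CPM in neg.si and at 86.9, 81.1 and 84.9 CPM in RIPK4.si. All RIPK4.si libraries were higher (log2 fold change 0.46, adjusted p = 0.237 in edgeR), and 24.9% of its exon bases overlap LIMD1-AS1 on the opposite strand. CNOT9 had a log2 fold change of 0.25, with overlap.

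For microRNA stability, tailing and editing, 0 of 15 tested genes was called by edgeR or DESeq2. In edgeR 1 had an unadjusted p under 0.05, beside 10.8% of all genes. ADARB1, an adenosine deaminase of double-stranded RNA, was at 26.1, 24.0 and 30.2 CPM in neg.si and at 20.7, 19.7 and 20.8 CPM in RIPK4.si. All RIPK4.si libraries were lower, with a log2 fold change of -0.39 (adjusted p = 0.390 in edgeR). The tailing enzymes TUT7 (0.26) and TENT2 (-0.35) and the exonuclease ERI1 (0.24) had overlap between the groups. With a library left out they ran from 0.18 to 0.40, from -0.47 to -0.19 and from 0.0597 to 0.51.

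Sensors of double-stranded RNA and the paralogs and partners stood apart from the other pathway lists by their medians. These were 0.50 and -0.43 on the log2 scale, beside -0.02 for all genes, and no difference between lists was tested. The second median is simply the value of TNRC6B, the middle of 5 paralogs and partners, with 2 fitted above 0 and 3 below. TNRC6B overlapped between the groups (adjusted p = 0.679 in edgeR), and the PIWI Argonautes in that list were near the floor. Of 12 sensors tested, 11 had a fitted value above 0, beside 7596 of the 16297 genes tested. All RIPK4.si libraries lay above all neg.si libraries in 6, beside 8.23% of all genes in that direction. An unadjusted p under 0.05 in edgeR was held by 4, beside 10.8% of all genes. edgeR called 0 of the 12, beside 0.767% of all genes, and DESeq2 called 2, beside 2.91% of the genes with an adjusted p. Most of these genes are known to be induced by interferon, so they are not independent of each other. The list was also chosen with earlier results of these data known, so these counts are a description and no support for a change. OAS2, an enzyme that double-stranded RNA activates, was at 131, 245 and 140 CPM in neg.si and at 255, 378 and 353 CPM in RIPK4.si. The lowest RIPK4.si library was only just above neg.si replicate 2. Its log2 fold change was 0.93 (standard error 0.261), with an adjusted p = 0.179 in edgeR and 0.0211 in DESeq2. In edgeR it was 0.0429 with a replicate block, 0.0203 with the GC trend removed as well, and up to 0.574 in the other alternatives. TLR3, an endosomal receptor, was at 2.13, 4.5 and 4.69 CPM in neg.si and at 6.75, 7.72 and 7.46 CPM in RIPK4.si, all higher. Its log2 fold change was 0.95, with an adjusted p = 0.219 in edgeR, 0.0480 in DESeq2, 0.0429 in edgeR with the GC trend removed and up to 0.613 in the other alternatives. Both groups had received double-stranded RNA as siRNA, and a part of the siRNA sequence in these values was not tested.

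**Figure D5:**
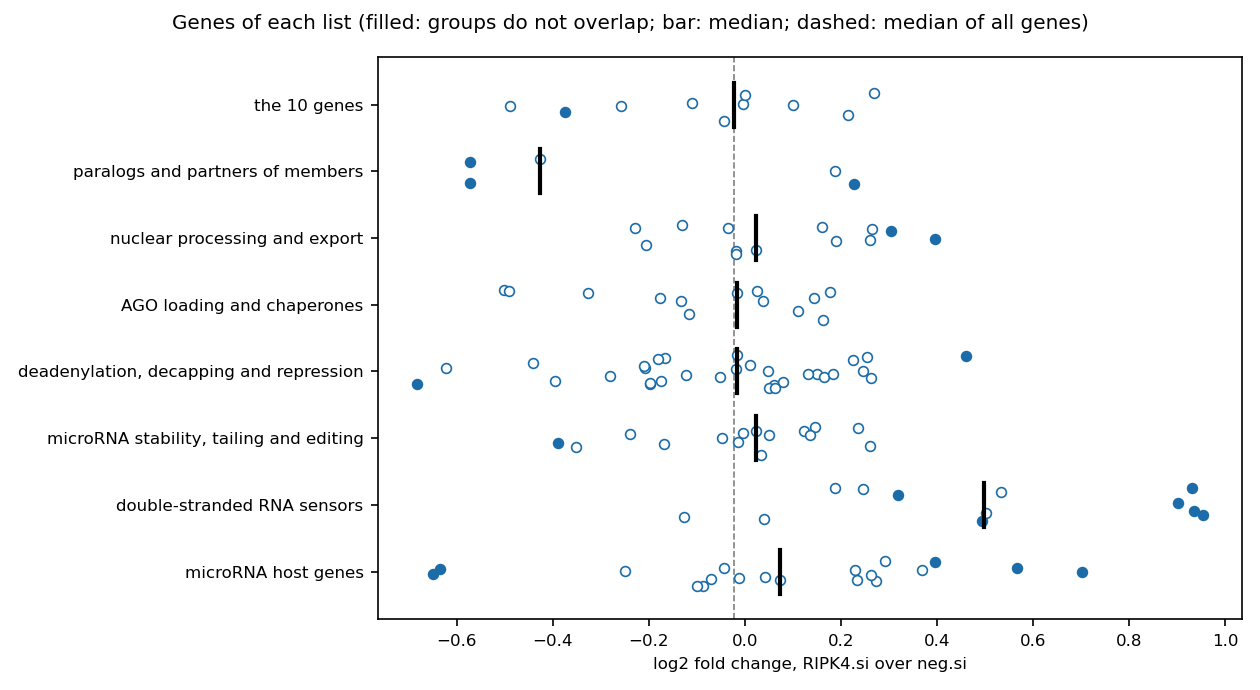
Log2 fold change of RIPK4.si over neg.si for each tested gene (points, filled where the groups do not overlap) of the 10 members and of 7 lists of pathway genes, with the median of each list (bar) and of all genes tested (dashed line). The medians lie within 0.1 of that of all genes except for the paralogs and partners (5 genes, -0.43) and the double-stranded RNA sensors (12 genes, 0.50).

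Host genes carry microRNAs in their introns or exons, and their poly(A) transcripts are the only trace of microRNA supply in these data. Mature microRNAs were not measured. Of 19 tested host genes edgeR and DESeq2 called 0, beside 0.767% and 2.91% of all genes with an adjusted p. In edgeR 4 had an unadjusted p under 0.05, beside 10.8% of all genes. MIR4435-2HG was at 12.8, 13.9 and 16.8 CPM in neg.si and at 20.6, 20.2 and 23.5 CPM in RIPK4.si, all higher. Its log2 fold change was 0.57 (standard error 0.172), with an adjusted p = 0.220 in edgeR and 0.0885 in DESeq2. Over the alternatives the adjusted p in edgeR or DESeq2 lay between 0.0314, with the GC trend removed, and 0.755. MIR193BHG, at 1.03, 1.07 and 1.45 CPM and at 1.98, 1.94 and 1.86 CPM, was higher in all RIPK4.si libraries (0.70, adjusted p = 0.346 in edgeR), and CTDSPL was too (0.40). MEST, at 2.78, 2.40 and 2.42 CPM and at 1.43, 1.77 and 1.64 CPM, was lower in all RIPK4.si libraries (-0.65, adjusted p = 0.320 in edgeR). On the opposite strand its exon bases overlap a long non-coding RNA (12.6%), MESTIT1 (10.2%) and COPG2 (4.78%). MIR155HG was lower with a gap that was close to nil (1.73 CPM in its lowest neg.si library and 1.7 CPM in its highest RIPK4.si library).

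From each microRNA hairpin annotated inside these hosts, on the same strand, 1 mature arm was chosen from general knowledge as the usual one, and it is shown with its seed in capitals so that the pairing it would allow can be read (RefSeq, GRCh38.p14):
miR-4435, in MIR4435-2HG: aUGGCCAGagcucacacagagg
miR-193b-3p, in MIR193BHG: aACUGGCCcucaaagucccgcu
miR-365a-3p, in MIR193BHG: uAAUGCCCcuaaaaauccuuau
miR-26a-5p, in CTDSPL: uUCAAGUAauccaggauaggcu
miR-335-5p, in MEST: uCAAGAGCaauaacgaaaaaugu
miR-155-5p, in MIR155HG: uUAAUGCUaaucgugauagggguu
No 2 of these 6 share a seed, nor does any of them share that of let-7 or of miR-103 and miR-107. A host transcript at 1 or 2 CPM does not tell how much of its microRNA is present.

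The labelled cell type was checked by its markers. All 10 melanocyte and melanoma markers were above 1 CPM on average, led by TYR, and their summed level was 4043, 3812 and 3610 CPM in neg.si and 2715, 2791 and 2676 CPM in RIPK4.si. The sum was lower in every RIPK4.si library, carried by the abundant TYR, DCT, S100B and PMEL. Of these edgeR called PMEL alone (log2 fold change -1.30, adjusted p = 0.0111 in edgeR) and DESeq2 called PMEL, DCT and TYR. The adjusted p of PMEL reached 0.129 in the alternatives. Without neg.si replicate 2 or RIPK4.si replicate 1 or 3, edgeR called no gene. With the GC trend removed, DCT had an adjusted p = 0.0206 in edgeR. Of the 10 fitted values 5 were above 0 and 5 below, with a median of -0.05. An unadjusted p under 0.05 in edgeR was held by 4 markers, all lower, beside 10.8% of all genes in either direction. Keratinocyte markers summed to 11.9, 10.5 and 10.6 CPM in neg.si and to 14.4, 16.3 and 12.2 CPM in RIPK4.si, higher in every RIPK4.si library. Nearly all of it was KRT10 (unadjusted p under 0.05 in edgeR and not called), with KRT5, KRT14 and TP63 under 1 CPM in every library. Fibroblast markers summed to at most 2.93 CPM and leukocyte and endothelial markers to at most 2.94 CPM.

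The genes most like AGO2 were taken as those with the smallest root mean square difference in centred log2 CPM over the 6 libraries, out of 16161 genes outside the lists. They were SMURF2 (0.0284), a ubiquitin ligase, NUP50 (0.0331), a nuclear pore protein, KAT2B (0.0347), an acetyltransferase, CNST (0.0349) and MSRB3 (0.0359), against a median difference of 0.359. SMURF2 was at 69.9, 82.4 and 92.8 CPM in neg.si and at 65.2, 56.8 and 66.9 CPM in RIPK4.si. Like AGO2 it was highest in neg.si replicate 3 and lowest in RIPK4.si replicate 2, and its log2 fold change was -0.38 (adjusted p = 0.431 in edgeR). None of the 5 was called, and their direction follows from how they were chosen.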

How the data were processed

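RNA of 3 neg.si and 3 RIPK4.si cultures of WM266.4 cells was sequenced by the authors as poly(A) libraries of paired reads. Reads were trimmed with Cutadapt, checked with FastQC, aligned with TopHat to GRCh38.p13, and counted with HTSeq on either strand. The deposited counts are whole numbers for 24526 genes with at least 6 counts in all. The signal values in the deposited table, DESeq2-normalized counts and their mean, were not used here. The fold change (a ratio), log2 fold change with its standard error, and p-value columns of the authors' own DESeq2 comparison were not used.

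Tests were run in edgeR 4.0.16 under R 4.3.3, with limma 3.58.1 (TMM, filterByExpr, quasi-likelihood test of condition, Benjamini-Hochberg adjustment over 16297 genes), after the code was tested on simulated data. Confidence intervals are 95% intervals from the same fit. DESeq2 1.42.0 was an alternative, beside other normalizations, other filters, a replicate block, a fit with GC trends taken out per library, and fits that left out each library. Coordinates are those of the deposited table. Exon lengths, GC content and 3′ UTRs came from GENCODE release 44, where 24416 identifiers were found, and microRNAs from RefSeq. Calculations outside R used Python 3.11.15 with scipy 1.17.1, pandas 2.3.3 and numpy 2.4.6, and plots matplotlib 3.10.9.

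The members and lists were chosen with earlier results of these data known. Named were the 10 members, RIPK4, TNRC6B, TNRC6C, PRKRA and the PIWIL genes. From each other pathway list every called gene and the 2 with the smallest p in each direction were named, and so were host genes without overlap and with a fold of at least 1.5. The 5 genes most like the member with the smallest p were added. Not every gene named by these rules is described. The ratios of AGO1 and the marker PMEL were picked out after their values were seen. Each p-value sets the difference between the groups against the spread between these cultures. It does not extend to other cell lines or other siRNAs.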

Additional observations from a re-analysis of the deposited data

How the results depend on the processing

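The number of members called was 0 in all 14 alternatives, and their median log2 fold change lay between -0.128 and 0.0877 with a library left out and between -0.0288 and 0.0107 otherwise. The ratio of AGO1 to AGO2, which was chosen after seeing the data, differed between the groups by 0.54 to 0.63 on the log2 scale with a library left out and by 0.59 in the other alternatives. The number of genes called, 125, was 437 with DESeq2, 532 with the GC trend removed, and between 0 and 295 with a library left out: 70, 0 and 295 without neg.si replicate 1, 2 or 3 and 0, 4 and 0 without RIPK4.si replicate 1, 2 or 3. The cause of these moves was not tested. RIPK4 had a log2 fold change between -2.06 and -1.74 with a library left out. Calls in the pathway lists, 0, became 2 with DESeq2 (TLR3, OAS2) and 3 with the GC trend removed (CNOT6, TLR3, MIR4435-2HG).

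Same-numbered libraries had correlated deviations of -0.242, 0.251 and 0.346, and as not all were over 0.1 the numbers were not taken as pairs, although this does not show that they carry none. Among all pairs across the groups, neg.si replicate 1 went best with RIPK4.si replicate 2 (0.413). Each had the highest Spearman's rho of its group between centred log2 CPM and GC content, at 0.555 and 0.165. Whether the correlation reflects shared cultures was not tested. With a replicate block 131 genes and 1 pathway gene (OAS2) were called, and with a replicate block and the GC trend removed 442 genes and 3 pathway genes (CNOT6, OAS2, TLR3), but not MIR4435-2HG (adjusted p = 0.0527 in edgeR).

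Values near 0 changed sign. DICER1 was at 0.0129 with DESeq2, 0.00571 with its size factors, 0.00721 with upper-quartile normalization, 0.0125 with no filter, 0.0361 with the block, 0.0555 with the GC trend removed and 0.0612 with both, and between -0.18 and 0.28 with a library left out. DROSHA was at 0.0113 with DESeq2, 0.00639 with its size factors, 0.0118 with upper-quartile normalization, 0.0109 with no filter, 0.0287 with the GC trend removed and 0.0205 with the block as well, and between -0.12 and 0.15 with a library left out. With a library left out, XPO5 lay between -0.0928 and 0.0242 and TNRC6A between -0.27 and 0.12. The other members kept their sign but not their size: AGO4 lay between -0.68 and -0.23, AGO3 between -0.386 and -0.0126, AGO2 between -0.45 and -0.25, AGO1 between 0.14 and 0.29, DGCR8 between 0.0374 and 0.18 and TARBP2 between 0.0434 and 0.51. The order by level changed at 8 places with the longest transcript as length and at up to 3 with a library left out, which was also tried after seeing the data, and not with DESeq2's size factors.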
